A study of Mus musculus with 9 samples.

Results

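The comparison described here set 66cl4 cells with the hairpin shEya3_KD1 against 66cl4 cells with a scrambled hairpin (SCR). It covered 15914 genes, those that passed a filter on low counts among 55418 gene symbols in the count table, in 6 of the study's 9 libraries (3 for each group). 66cl4 is a mouse line of triple negative breast cancer, a class of tumour that shows neither hormone receptors nor extra copies of Her2. The cells of both groups had been transduced with a short hairpin RNA, a transcript that cells trim to a small guide against a matching messenger RNA, and both were kept in puromycin at 2.5 µg/ml, so the SCR cells share the transduction and the selection. The remaining 3 libraries came from cells with another hairpin named for Eya3, shEya3_KD2, which had passed through the same selection. They shared the estimate of the spread and were used to ask which changes differed between the hairpins. The labels call the replicates biological but do not describe separate cultures, and p-values weigh a difference only against the spread of these libraries. Whether each line was a pool or a clone is not given in the sources used here, and with 1 hairpin per group the loss of Eya3, other targets of the hairpin and the history of the line that carries it cannot be told apart.

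Eya3 belongs to the Eyes absent family, nuclear co-activators that bind DNA through partner proteins and also carry a tyrosine phosphatase domain. Proteins of this family act in organ development and in the response to DNA damage, and several are raised in breast tumours. A change in such a co-activator can be followed outward in the transcriptome: in other transcription factors, in the receptors a cell displays, in the factors it secretes, and in the pathways those factors act on. Chemokine and interferon genes were passed over here, save where they also belong to a list of receptors, secreted or transcription factors.

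Library totals of the 6 libraries lay between 34429861 and 50259407 counts. Within a group the lowest correlation of log2 CPM (counts-per-million, scaled for library composition) between libraries was 0.994, and the highest between libraries of different groups was 0.949. Mitochondrially encoded transcripts made up 1.39% to 2.17% of the counts in SCR and 1.68% to 2.47% in shEya3_KD1. The line lacked defining epithelial markers in both groups, with no counts of Epcam and 9 and 5 counts of Cdh1, while Krt8 and Vim, of simple epithelium and mesenchyme, stood at 679 ± 20.8 and 2099 ± 17.3 CPM (mean ± SD, n = 3) in SCR. Markers of other cell types moved between the groups. The summed level of 17 macrophage markers was 80.2 to 82.2 CPM in SCR and 35.1 to 39.6 CPM in shEya3_KD1, carried by Lyz2 and Cd14, with C1qa and C1qc at 0 and Ptprc at 0.641 ± 0.153 CPM in SCR. The sum of 12 fibroblast markers was 29.3 to 36.3 CPM in SCR and 54.9 to 59.9 CPM in shEya3_KD1, carried by Pdgfra and Pdgfrb, with Thy1 at 0. For 14 lymphocyte markers the sum was 1.02 to 1.37 CPM in SCR and 1.44 to 1.66 CPM in shEya3_KD1, with Cd8a and Gzmb at 0, and for 11 endothelial markers it was 5.27 to 6.16 CPM and 4.45 to 5.59 CPM, with Cldn5 at 0. The endothelial sum hid changes in both directions. Cdh5 went from 3.72 CPM in SCR to 0.264 CPM in shEya3_KD1 and Emcn from 0.0132 to 2.24 CPM. Of 5 tested endothelial markers 3 rose and 2 fell. The part of these shifts in the results below was not tested, and in RNA from whole cultures fewer cells of a type and less RNA per cell cannot be told apart.

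The targeted gene was read first. Eya3, on chromosome 4 of mm10 from 132638987 to 132724765, stood at 68.1, 79.02 and 71.7 CPM in the SCR libraries and at 24.9, 21.5 and 22.9 CPM in the shEya3_KD1 libraries. Every shEya3_KD1 library lay below every SCR library, and the log2 fold change was -1.66 ± 0.08 (SE; adjusted p = 3.48e-10 by the quasi-likelihood test of edgeR, with Benjamini-Hochberg adjustment over all genes tested, as for each adjusted p below). A gene is said to have risen or fallen where that adjusted p was at most 0.05. By that rule 3839 genes rose and 4172 fell, 24.1% and 26.2% of those tested, so that a called change was the state of 50.3% of genes. More than 2-fold changes were found in 823 genes that rose and 1517 that fell, 5.17% and 9.53% of the genes tested, and the libraries of the 2 groups did not overlap for 59.3% of genes. A count of members within a gene list is to be read against these shares.

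The comparison was then read by the kind of protein encoded. Of 239 tested secreted factors 77 rose and 104 fell, 75.7% of the class against 50.3% of all genes, and of 319 tested receptors and adhesion molecules 102 rose and 117 fell, 68.7%. Among 379 tested transcription factors 121 rose and 115 fell, 62.3%. The median log2 fold changes of the classes were -0.08, -0.02 and 0.03, against 0.01 for all genes. More than 2-fold changes were found in 42 secreted factors that rose and 74 that fell, in 49 and 62 receptors and in 38 and 35 transcription factors. In the chart of gene lists, cytokines, matrix proteases, cytokine receptors, prostaglandin and sphingosine 1-phosphate enzymes and Nrf2 targets leaned towards falling, and glycolysis, the amino acid stress response and ribosomal proteins towards rising.

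**Figure D1:**
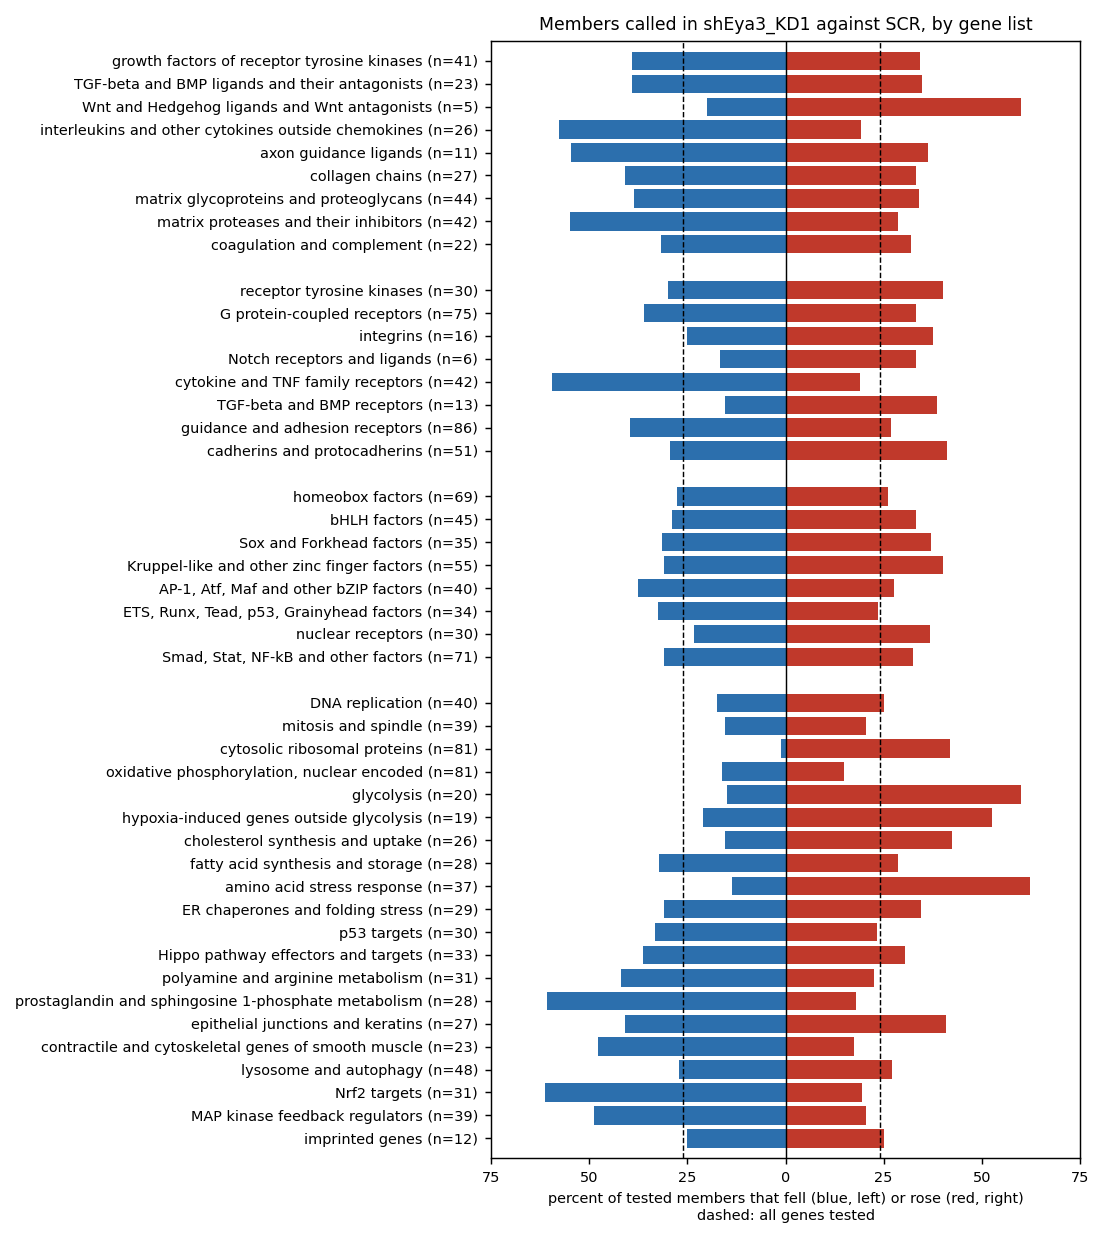
Percent of the tested members of each gene list that fell (blue bars, to the left) or rose (red bars, to the right) in shEya3_KD1 against SCR, with n the tested members; dashed lines mark the 26.2% and 24.1% of all genes tested that fell and rose. Bars of prostaglandin and sphingosine 1-phosphate metabolism, Nrf2 targets and cytokine and TNF family receptors reach farthest left, those of the amino acid stress response, glycolysis and Wnt ligands (5 genes) farthest right.

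The first list of the secreted class held proteases, which cut matrix and cell surface proteins, and the inhibitors that hold them in check. Some members, Mmp24 and Mmp14 among them, are bound to the membrane but were counted in this class throughout. Of 42 tested members 12 rose and 23 fell, with a median log2 fold change of -0.69. Spint2, an inhibitor of membrane serine proteases encoded on chromosome 7 of mm10 from 29256323 to 29281912, had 0, 0.0786 and 0.0240 CPM in the SCR libraries and 54.9, 51.9 and 52.2 CPM in shEya3_KD1. It was at the edge of detection in SCR and plainly expressed in every shEya3_KD1 library (log2 fold change 10.45 ± 0.21, adjusted p = 1.51e-14 in edgeR). Mmp24, a membrane-bound metalloprotease on chromosome 2 of mm10 from 155775342 to 155818366, went the opposite way, from 126, 126 and 121 CPM in SCR to 0.499, 0.491 and 0.346 CPM. Its level in shEya3_KD1 was near the floor in all 3 libraries (log2 fold change -8.10 ± 0.11, adjusted p = 2.8e-16 in edgeR). The gelatinase Mmp9 was at 14.6, 16.6 and 14.6 CPM in SCR and 0.599, 0.445 and 0.519 CPM in shEya3_KD1, and the membrane collagenase Mmp14 fell from 127 ± 7.70 to 49.7 ± 6.64 CPM. Mmp1b had 180 counts in SCR and none in shEya3_KD1, at least 49.3-fold lower when the empty group is given 3 counts, as for each such bound below. Of the Adamts family, proteases that process matrix proteoglycans and collagen precursors, Adamts6 was at 20.1, 20.3 and 20.97 CPM in SCR and 2.997, 2.48 and 2.16 CPM in shEya3_KD1, and the log2 fold changes of Adamts7 and Adamts14 were -2.98 and -2.19. Among inhibitors, Spint2 apart, Slpi, which blocks neutrophil elastase, went from 36.00 ± 2.96 to 5.49 ± 0.535 CPM. The secreted serine protease Prss23 rose from 21.5 ± 2.46 to 79.2 ± 2.94 CPM. With no filter on low counts 19 members of the list rose, and the median lay between -0.77 and -0.11 over the settings tried. Mmp14, Adamts14 and Prss23 were chosen after their values were seen, as were all genes in this account outside the stated rule, which are listed with the processing.

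Collagens and other matrix proteins moved both ways. Of 27 tested collagen chains 9 rose and 11 fell, and of 44 tested matrix glycoproteins and proteoglycans 15 rose and 17 fell (24 rose with no filter on low counts). Col5a2, a chain of the fibril-forming collagen V on chromosome 1 of mm10 from 45374321 to 45503282, stood at 0.732, 0.551 and 1.18 CPM in SCR and at 32.02, 26.6 and 25.2 CPM in shEya3_KD1 (log2 fold change 5.12 ± 0.18, adjusted p = 1.93e-11 in edgeR). The basement membrane chain Col4a5 rose from 24.3 ± 1.35 to 142 ± 7.36 CPM, whereas Col6a5, a chain of the microfibrillar collagen VI, fell from 215 ± 32.3 to 56.3 ± 6.47 CPM. The fibrillar chains that pair in collagen I moved apart: Col1a2 was at 0.0847 ± 0.0223 CPM in SCR and 4.53 ± 0.514 CPM in shEya3_KD1, and Col1a1 at 3.65 ± 0.603 and 1.29 ± 0.229 CPM. Both are also fibroblast markers, 4 of whose 6 tested members rose and 1 fell, and the part of other cells in this was not tested. Mgp, an inhibitor of calcification, was at 0.317, 0.334 and 0.625 CPM in SCR and at 11.4, 11.5 and 9.86 CPM in shEya3_KD1, and Thbs1, an adhesive glycoprotein that also activates latent TGF-beta, at 16.5, 19.3 and 21.9 and 449, 351 and 349 CPM. The rule that named Mgp and Thbs1 asked for groups that did not overlap. Ogn, a small leucine-rich proteoglycan, rose by 2.85 on the log2 scale. Sparc, which binds collagen outside the cell, fell from 453 ± 14.2 to 201 ± 10.8 CPM, and Loxl4, a collagen crosslinking oxidase, from 178 ± 1.12 to 91.97 ± 8.21 CPM.

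Growth factors and their antagonists were divided in the same manner. Of 41 tested growth factors of receptor tyrosine kinases and their binding proteins 14 rose and 16 fell. Igfbp4, which holds insulin-like growth factors outside the cell, had the widest fall of the list in CPM, from 978, 1005 and 939 CPM in SCR to 299, 271 and 237 CPM in shEya3_KD1. Vegfc, a ligand of the receptor of lymphatic vessels, fell from 18.8 ± 1.16 to 3.04 ± 0.165 CPM, Pdgfa from 44.2 ± 4.42 to 18.6 ± 0.649 CPM and Hbegf, a ligand of the EGF receptor, from 185 ± 5.67 to 88.2 ± 1.76 CPM. Fgf10, a ligand for Fgfr2, rose from 9.49 ± 0.216 to 26.7 ± 3.52 CPM, Pdgfb from 1.80 ± 0.412 to 5.95 ± 0.285 CPM and Ccn2 from 27.5 ± 3.47 to 58.1 ± 5.44 CPM. Pdgfa and Pdgfb, which encode related ligands, thus moved in opposite directions.

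The TGF-beta and BMP list held 8 members that rose and 9 that fell among 23 tested. Fst, which traps activins, stood at 3.98, 3.62 and 3.37 CPM in SCR and at 35.4, 38.1 and 37.1 CPM in shEya3_KD1 (log2 fold change 3.33 ± 0.09, adjusted p = 4.89e-13 in edgeR). Grem1, an antagonist of BMPs, rose from 3.22 ± 0.375 to 14.04 ± 2.14 CPM. Fstl3, a relative of Fst with the same kind of ligand, fell from 37.8 ± 2.78 to 8.76 ± 0.353 CPM. Of the ligands themselves Tgfb1 fell from 157 ± 5.69 to 78.1 ± 7.55 CPM and Tgfb3 from 8.25 ± 0.518 to 3.75 ± 0.102 CPM, and of the proteins that store latent TGF-beta in matrix Ltbp4 and Ltbp2 fell (log2 fold changes -1.96 and -2.03) while Ltbp1 rose (1.29). Of 13 tested receptors of the family 5 rose and 2 fell, with Tgfbr2 from 472 ± 6.68 to 265 ± 17.7 CPM, Tgfbr1 from 41.2 ± 0.601 to 61.5 ± 2.30 CPM and Tgfbr3 from 58.6 ± 2.29 to 89.8 ± 10.2 CPM. The number that fell was 1 without SCR replicate 2 or 3 or without shEya3_KD1 replicate 2 or 3, and at a minimum fold of 1.5 none rose. Downstream, Smad6, an inhibitory Smad of the BMP branch, was at 2.02, 2.06 and 1.78 CPM in SCR and 8.99, 7.75 and 7.12 CPM in shEya3_KD1, Id2 at 27.4, 25.97 and 26.3 and 132, 129 and 132 CPM, and Id1 rose by 1.15 on the log2 scale. Id1 and Id2 are inhibitors of bHLH factors and known BMP targets, and Smad3, the effector of the TGF-beta branch, rose from 69.4 ± 8.40 to 160.1 ± 16.8 CPM.

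Axon guidance ligands, secreted cues that steer cell migration as well as axons, counted 4 that rose and 6 that fell of 11 tested. Sema3a was at 11.7, 13.7 and 13.1 CPM in SCR and at 171, 160.4 and 155 CPM in shEya3_KD1 (log2 fold change 3.66 ± 0.09, adjusted p = 8.27e-14 in edgeR). Sema3c, a ligand of the same class, was at 58.6, 55.7 and 60.3 CPM in SCR and at 5.97, 5.17 and 5.25 CPM in shEya3_KD1 (log2 fold change -3.41 ± 0.10). These class 3 semaphorins thus crossed over, and the rule that named both asked for libraries without overlap. Sema3f rose from 1.45 ± 0.294 to 6.93 ± 0.829 CPM, and the netrin Ntn1 fell from 27.1 ± 2.82 to 2.61 ± 0.897 CPM. The median of the list was -1.15, and 0.12 with a filter of 5 CPM in 3 libraries, so its sign rests on genes of low level.

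Cytokines outside the chemokines leaned towards falling, with 15 of 26 tested fallen and 5 risen and a median of -0.35. Csf3, the growth factor of neutrophils, fell from 2.34 ± 0.472 to 0.245 ± 0.116 CPM and Lcn2, an iron-binding protein secreted in inflammation, from 5.82 ± 0.609 to 1.45 ± 0.243 CPM. Lgals9, a secreted lectin, went from 104 ± 4.47 to 57.8 ± 4.82 CPM. Tnfsf15, a ligand of the TNF family, had 73 counts in SCR and none in shEya3_KD1, at least 19.99-fold lower. Spp1 (osteopontin), an integrin ligand, was the main exception, at 283, 296 and 287 CPM in SCR and 1800, 1919 and 1848 CPM in shEya3_KD1. Of 22 coagulation and complement genes 7 rose and 7 fell (4 without SCR replicate 2). C3, the central complement component, went from 29.7, 39.1 and 33.1 CPM in SCR to 5.25, 4.17 and 3.43 CPM in shEya3_KD1, and the protease C1s1 fell from 33.6 ± 2.76 to 13.5 ± 1.81 CPM. F3, the tissue factor that starts coagulation, rose from 6.62 ± 0.185 to 12.3 ± 1.27 CPM. Of 5 tested Wnt and Hedgehog ligands and Wnt antagonists 3 rose and 1 fell. Wnt7a was among those that rose, from 1.55 ± 0.434 to 4.46 ± 0.173 CPM, and Wnt9a fell from 4.87 ± 0.211 to 2.31 ± 0.0973 CPM.

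**Figure D2:**
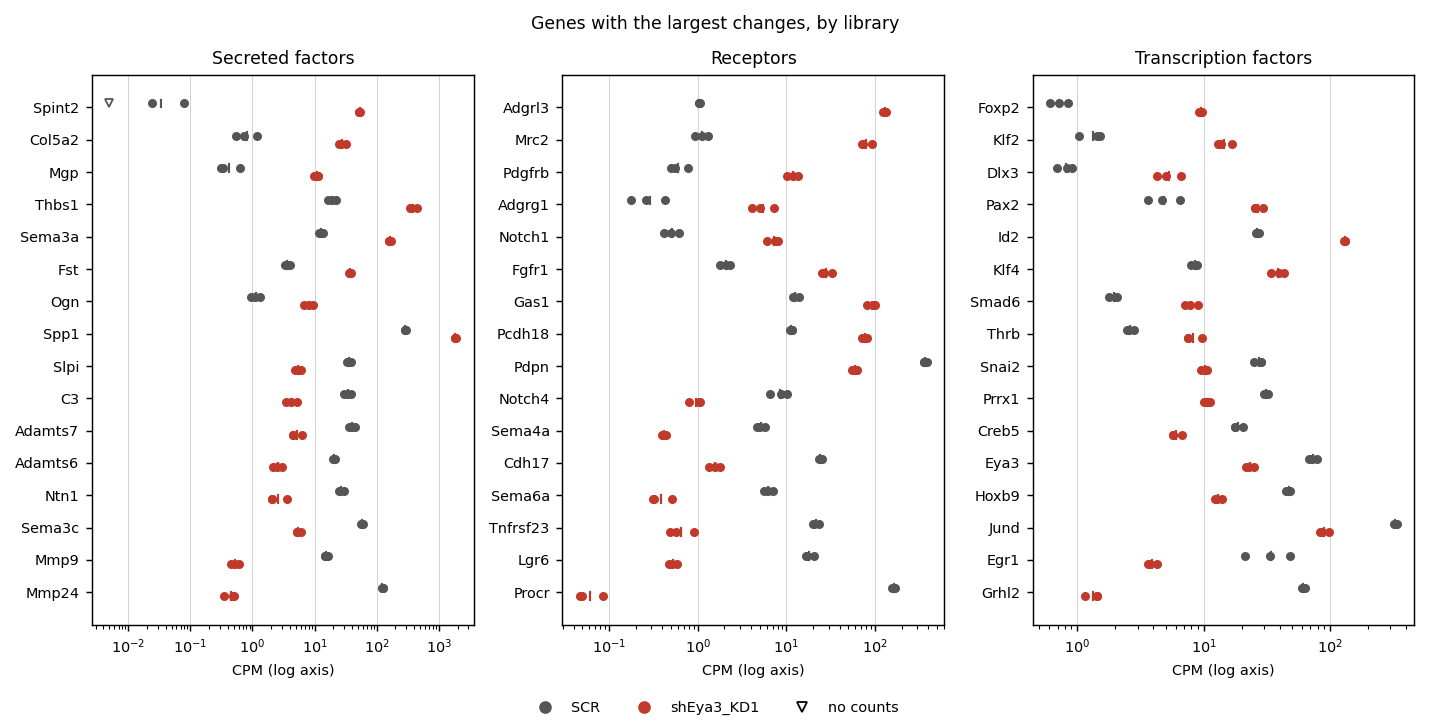
Level in CPM (log axis) of the genes with the largest rises and falls among secreted factors, receptors and transcription factors at 5 CPM or more in either group, with 1 point for each SCR (grey) and shEya3_KD1 (red) library and short bars for group means; an open triangle is a library with no counts. The genes were picked for their change in this comparison, and only genes whose 3 and 3 libraries do not overlap could be picked.

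The receptor with the largest fall was Procr, the receptor of protein C, which also marks certain mammary progenitor cells, encoded on chromosome 2 of mm10 from 155751117 to 155755471. It stood at 169, 166 and 157 CPM in SCR and at 0.04995, 0.0468 and 0.0865 CPM in shEya3_KD1, 23520 counts against 7 over the groups. The receptor was thus near absent from all 3 shEya3_KD1 libraries (log2 fold change -11.36 ± 0.16, adjusted p = 2.8e-16 in edgeR). Mmp24, given above, starts close by at 155775342 on the same strand. Whether the falls of Procr and Mmp24 are linked was not tested. Pdpn, the mucin-like membrane protein podoplanin, fell from 384, 362 and 357 CPM to 55.5, 60.7 and 62.5 CPM. Mrc2, which takes up collagen fragments for degradation, was at 0.930, 1.32 and 1.11 CPM in SCR and 91.5, 72.6 and 71.7 CPM in shEya3_KD1. Gas1, a membrane protein that binds Hedgehog ligands and Gdnf family signals, rose from 12.7 ± 0.997 to 93.1 ± 10.8 CPM. Over all 86 tested guidance and adhesion receptors 23 rose and 34 fell. The transmembrane semaphorins Sema4a and Sema6a fell (log2 fold changes -3.62 and -4.000), as did Sema7a, anchored in the membrane by lipid, from 52.8 ± 4.53 to 19.6 ± 0.192 CPM, while the ephrins Efnb2 and Efna5 rose (log2 fold changes 1.15 and 1.17).

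Receptor tyrosine kinases, the receptors of most growth factors above, had 12 members that rose and 9 that fell of 30 tested. Fgfr1 was at 1.78, 2.10 and 2.33 CPM in SCR and at 33.1, 26.9 and 24.99 CPM in shEya3_KD1 (log2 fold change 3.78 ± 0.18, adjusted p = 1.61e-09 in edgeR), and Pdgfrb, the receptor of Pdgfb, at 0.495, 0.551 and 0.769 and 13.4, 11.98 and 10.1 CPM. Each was low in SCR and several times higher in every shEya3_KD1 library. Pdgfrb and Pdgfra (from 27.99 ± 2.98 to 37.9 ± 1.30 CPM) carry most of the fibroblast marker sum given above. Fgfr2 rose from 11.7 ± 0.623 to 32.5 ± 3.82 CPM, while Erbb3 fell from 18.3 ± 1.09 to 6.996 ± 0.777 CPM and Erbb4 from 1.77 ± 0.299 to 0.0663 ± 0.0357 CPM. For Fgfr3 there were 120 counts in SCR against 1 in shEya3_KD1, 98.6 times as many after scaling (95% interval from counting 17.4 to 3927). The annotated span of Fgfr2 covers several other genes, so its reading is uncertain.

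Among 75 tested G protein-coupled receptors 25 rose and 27 fell. Adgrl3, an adhesion receptor of the latrophilin family that binds teneurins and Flrt proteins on neighbouring cells, is encoded on chromosome 5 of mm10 from 81020138 to 81825133. It had 1.03, 1.04 and 1.06 CPM in SCR and 133, 129.7 and 124 CPM in shEya3_KD1 (log2 fold change 6.95 ± 0.09, adjusted p = 2.8e-16 in edgeR), with the libraries of each group close together. Its relative Adgrl2 rose from 51.3 ± 6.75 to 120.3 ± 13.4 CPM, and Adgrg1, a collagen-binding adhesion receptor, was at 0.178, 0.433 and 0.265 and 7.32, 4.07 and 5.01 CPM. Lgr6, which binds R-spondins and marks stem cells of skin, was at 17.1, 20.8 and 16.9 CPM in SCR and at 0.475, 0.585 and 0.519 CPM in shEya3_KD1. Of the receptors that carry Wnt and Hedgehog signals, Fzd1 rose from 14.4 ± 0.0992 to 66.7 ± 3.23 CPM and Smo from 10.7 ± 0.556 to 55.4 ± 3.30 CPM, and Fzd4 fell from 6.01 ± 0.163 to 2.85 ± 0.261 CPM. Rxfp1, the relaxin receptor, had 560 counts in SCR and none in shEya3_KD1, at least 153-fold lower, and Gpr20 had none in SCR and 94 in shEya3_KD1, at least 38.1-fold higher.

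Cytokine and TNF family receptors fell more often than they rose, with 25 of 42 tested fallen, 8 risen and a median of -0.55. Tnfrsf23, a mouse decoy receptor for the death ligand Trail, was at 20.4, 23.6 and 20.2 CPM in SCR and at 0.899, 0.491 and 0.576 CPM in shEya3_KD1 (log2 fold change -5.02 ± 0.17, adjusted p = 3.63e-12 in edgeR). Il17rc, a chain of the interleukin 17 receptor, fell from 34.8 ± 3.38 to 8.87 ± 0.153 CPM, Tnfrsf9 from 23.02 ± 1.46 to 6.91 ± 0.338 CPM and Il6st, the signalling chain shared by interleukin 6 type cytokines, from 261 ± 8.14 to 144 ± 6.10 CPM. Il11ra1, which pairs with Il6st, fell by 2.10 on the log2 scale, though it overlaps Galt on the same strand. Against this trend the death receptor Tnfrsf21 rose from 4.89 ± 0.589 to 23.5 ± 1.87 CPM and the leptin receptor Lepr from 9.79 ± 0.728 to 21.7 ± 0.835 CPM. Lifr, another partner of Il6st, had no counts in SCR and 50 in shEya3_KD1, at least 20.3-fold higher.

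Receptors of the Notch system moved in opposite directions. Notch1 was at 0.416, 0.610 and 0.505 CPM in SCR and at 7.97, 6.11 and 7.49 CPM in shEya3_KD1, and Notch4 at 6.63, 10.2 and 8.61 and 1.05, 1.05 and 0.807 CPM. Their log2 fold changes were 3.81 ± 0.32 and -3.12 ± 0.24, and the rule that named them asked for groups without overlap. Of the 6 tested receptors and ligands 2 rose and 1 fell (4 rose with the fit on the 6 libraries alone, and 5 rose and 2 fell with no filter). Hey2, a repressor induced by Notch, had no counts in SCR and 168 in shEya3_KD1, at least 68.2-fold higher, while its relative Hey1 fell from 3.15 ± 0.598 to 1.80 ± 0.250 CPM. Of 51 cadherins and protocadherins 21 rose and 15 fell. Cdh17, a cadherin of intestine and liver, was at 23.3, 25.2 and 24.4 CPM in SCR and 1.80, 1.33 and 1.58 CPM in shEya3_KD1, and Pcdh18 at 11.1, 11.7 and 11.5 and 81.4, 76.6 and 71.5 CPM. Integrins, the receptors for matrix, counted 6 risen and 4 fallen of 16. Itga3 and Itgb4, subunits of laminin receptors, rose from 464 ± 43.1 to 860.0 ± 62.2 CPM and from 17.6 ± 2.18 to 49.9 ± 7.30 CPM, and Itgb2 and Itgb7, beta subunits best known from leukocytes, fell from 459 ± 8.05 to 230.5 ± 8.60 CPM and from 23.7 ± 2.02 to 12.8 ± 0.647 CPM. Of 7 tested macrophage markers 6 fell and 1 rose, and Ptprc, which leukocytes carry, went from 0.641 ± 0.153 to 0.203 ± 0.0268 CPM. The part of such cells in the fall of Itgb2 and Itgb7 was not tested.

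Among transcription factors at 5 CPM or more in either group the largest fall was in Grhl2, a Grainyhead factor that keeps up epithelial junction genes, encoded on chromosome 15 of mm10 from 37233036 to 37363569. It was at 63.6, 60.8 and 59.9 CPM in SCR and 1.42, 1.43 and 1.15 CPM in shEya3_KD1 (log2 fold change -5.51 ± 0.10, adjusted p = 2.72e-15 in edgeR). The groups were far apart and the libraries of each close together. Elf3, an epithelial ETS factor, fell from 3.53 ± 0.437 to 0.314 ± 0.148 CPM and the Grainyhead factor Grhl1 from 6.35 ± 0.427 to 3.26 ± 0.0617 CPM. Trp63, the p53 relative of basal epithelium, was seen once in SCR and in 567 counts in shEya3_KD1, 690.0 times as many after scaling (95% interval from counting 123 to 27300). Snai2 and Prrx1, factors known from mesenchymal cells, also fell: Snai2 was at 28.3, 25.1 and 28.5 CPM in SCR and 10.7, 10.2 and 9.60 CPM in shEya3_KD1, and Prrx1 at 31.3, 32.6 and 30.01 and 10.04, 11.3 and 10.8 CPM. Of 34 tested ETS, Runx, Tead, p53 and Grainyhead factors 8 rose and 11 fell. Sox9 and Gata3, factors known from the luminal mammary lineage, rose from 5.71 ± 1.19 to 16.6 ± 0.759 CPM and from 48.4 ± 2.89 to 90.4 ± 10.5 CPM.

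Genes of epithelial structure did not move as 1 group. Whether the factors above act on them in these cells was not tested. Of 27 tested genes of epithelial junctions and keratins, Grhl2, Elf3 and Spint2 among them, 11 rose and 11 fell. The tight junction claudin Cldn1 was likewise seen once in SCR and in 419 counts in shEya3_KD1 (509.9 times as many, 95% interval from counting 91.02 to 20190), and Krt8 rose from 679 ± 20.8 to 1315 ± 81.5 CPM. Pkp2, a desmosome protein, fell from 54.2 ± 3.54 to 17.4 ± 2.26 CPM. Vim, the mesenchymal filament protein, rose from 2099 ± 17.3 to 3186 ± 145 CPM. The median of the epithelial list was 0.24 and ranged from -0.23 to 0.31 over the settings tried.

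Zinc finger factors of the Krüppel-like, Egr, Gli, Snail and GATA families counted 22 that rose and 17 that fell of 55 tested. Egr1, an immediate early factor, stood at 21.2, 33.6 and 48.2 CPM in SCR and at 3.60, 4.31 and 3.77 CPM in shEya3_KD1. The SCR libraries were widely spread, and the rule that named Egr1 asked that they not overlap those of shEya3_KD1 (log2 fold change -3.13 ± 0.37, adjusted p = 0.000175 in edgeR). Egr2 and Egr3 moved the other way, from 1.002 ± 0.232 to 4.47 ± 0.148 CPM and from 0.0605 ± 0.0668 to 2.40 ± 0.252 CPM. Klf2 was at 1.03, 1.51 and 1.44 CPM in SCR and 16.6, 13.7 and 12.97 CPM in shEya3_KD1, and Klf4 at 7.96, 8.83 and 8.71 and 43.03, 39.8 and 34.2 CPM. Both are Krüppel-like factors with roles in quiescence and differentiation.

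Homeobox factors had 18 members that rose and 19 that fell of 69 tested. Hoxb9 fell from 45.3, 47.7 and 48.7 CPM to 12.3, 13.9 and 12.7 CPM and its neighbour in the Hoxb cluster Hoxb8 from 21.2 ± 2.003 to 8.69 ± 0.733 CPM. Pax2, a factor of kidney development, rose from 3.60, 6.45 and 4.64 CPM to 29.7, 25.7 and 25.5 CPM, and Dlx3 from 0.811 ± 0.111 to 5.32 ± 1.19 CPM. Foxp2, a Forkhead repressor encoded on chromosome 6 of mm10 from 14901349 to 15441977, was at 0.713, 0.610 and 0.842 CPM in SCR and at 9.79, 9.46 and 9.19 CPM in shEya3_KD1 (log2 fold change 3.72 ± 0.15, adjusted p = 2.02e-11 in edgeR). It was below 1 CPM in every SCR library and near 10 CPM in every shEya3_KD1 library. Of 35 Sox and Forkhead factors 13 rose and 11 fell, of 45 bHLH factors 15 rose and 13 fell, and of 71 Smad, Stat, NF-kB and other factors 23 rose and 22 fell. Myf5, a bHLH factor of the muscle lineage, where Eya proteins are known to act, had 248 counts in SCR and none in shEya3_KD1, at least 67.9-fold lower. Relb and Nfkb2, partners in the non-canonical branch of NF-kB, fell from 45.8 ± 3.83 to 17.5 ± 1.10 CPM and from 408 ± 24.4 to 224 ± 21.4 CPM.

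Nuclear receptors, factors switched by small lipophilic ligands, counted 11 risen and 7 fallen of 30 tested. Thrb, a receptor of thyroid hormone, was at 2.55, 2.81 and 2.48 CPM in SCR and at 9.69, 7.46 and 7.58 CPM in shEya3_KD1. Esr1, the oestrogen receptor that triple negative tumours lack as a protein by definition, rose from 7.12 ± 0.294 to 14.8 ± 0.852 CPM, and Ppard, a fatty acid sensor, fell from 152 ± 10.4 to 72.2 ± 4.67 CPM.

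The bZIP factors, which include AP-1, counted 11 that rose and 15 that fell of 40 tested. Jund, an AP-1 subunit, was at 322, 339.5 and 328 CPM in SCR and 98.3, 85.7 and 83.2 CPM in shEya3_KD1 (log2 fold change -1.89 ± 0.08, adjusted p = 2.59e-11 in edgeR). Fosl2, a partner of Jun proteins, fell from 211 ± 11.3 to 102 ± 14.3 CPM and Maff from 53.3 ± 2.49 to 24.6 ± 0.664 CPM. Creb5 was at 17.8, 17.6 and 20.5 and 6.77, 5.76 and 5.76 CPM. Fosb rose from 3.73 ± 0.922 to 10.7 ± 0.890 CPM and Atf5, a factor of the amino acid response, from 77.00 ± 2.53 to 181 ± 25.2 CPM.

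Promoters were searched for letters that AP-1 and Grainyhead factors are known to bind. The windows ran from 250 bases before to 50 bases after the RefSeq start (GRCm38.p6). Windows were used for 10191 of the genes tested and for 118 of the 158 genes named by rule. The AP-1 letters TGANTCA, read on both strands, were in 5.54% of the 13008 windows of tested genes. They were in 8.96% of windows of genes that rose more than 2-fold, in 10.2% of those that fell more than 2-fold and in 4.56% of those not called. For a Grainyhead site (AACCNGTT) the shares were 1.78%, 1.91%, 1.70% and 2.00% in the same order. These are descriptions of letters without a test, and a match is not a bound site. The windows below show the falling and the rising pair with the largest change among those of the 118 genes that hold AP-1 letters. The other genes named by rule had no window or were left out of this choice, so some with a larger change may hold such letters too. The windows are printed so that the position of the match can be seen. The match is in capitals, and letters run 5′ to 3′ on the strand of the gene. Procr (chr2:155750967-155751266, plus strand) holds the match 154 bases before the start, and Osgin1 (chr8:119436897-119437196, plus strand), an oxidative stress gene that fell from 25.9 ± 4.24 to 1.99 ± 0.624 CPM, 97 bases before it. Adgrg1 (chr8:94984149-94984448, plus strand) holds matches 141 and 59 bases before the start, and Ptgds (chr2:25469700-25469999, minus strand), a prostaglandin D synthase that rose from 1.72 ± 0.0641 to 20.9 ± 1.18 CPM, 35 bases before it.
Procr: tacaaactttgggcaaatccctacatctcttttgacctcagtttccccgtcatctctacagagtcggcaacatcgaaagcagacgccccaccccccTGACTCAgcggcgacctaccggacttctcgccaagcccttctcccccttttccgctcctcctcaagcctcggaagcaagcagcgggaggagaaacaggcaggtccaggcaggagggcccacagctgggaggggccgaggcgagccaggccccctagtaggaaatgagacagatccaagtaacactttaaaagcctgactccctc
Osgin1: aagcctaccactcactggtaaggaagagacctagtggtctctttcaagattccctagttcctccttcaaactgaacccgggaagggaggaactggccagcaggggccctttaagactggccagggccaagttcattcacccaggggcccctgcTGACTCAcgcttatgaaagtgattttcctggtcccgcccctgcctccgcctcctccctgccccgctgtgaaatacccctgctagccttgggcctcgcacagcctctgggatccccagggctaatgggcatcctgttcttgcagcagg
Adgrg1: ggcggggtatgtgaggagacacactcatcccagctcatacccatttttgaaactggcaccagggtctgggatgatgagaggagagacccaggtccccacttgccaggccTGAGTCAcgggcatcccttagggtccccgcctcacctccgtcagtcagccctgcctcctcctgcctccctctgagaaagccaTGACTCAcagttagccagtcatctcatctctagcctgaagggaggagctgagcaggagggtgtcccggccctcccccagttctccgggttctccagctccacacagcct
Ptgds: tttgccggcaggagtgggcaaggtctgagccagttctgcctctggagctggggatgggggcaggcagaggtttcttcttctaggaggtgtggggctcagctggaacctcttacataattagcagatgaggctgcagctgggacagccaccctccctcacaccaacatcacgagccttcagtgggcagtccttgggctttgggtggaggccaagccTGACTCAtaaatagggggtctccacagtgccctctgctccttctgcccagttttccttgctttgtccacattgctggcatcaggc

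Several metabolic pathways leaned towards rising, with most of their risen members under 2-fold. Of 20 tested glycolysis genes 12 rose and 3 fell, with a median log2 fold change of 0.42 (the number that fell was 1 without SCR replicate 2 or without shEya3_KD1 replicate 2 or 3, and at a minimum fold of 1.5 only 2 rose). Pfkfb4, which sets the level of a glycolytic activator, was at 14.5, 13.5 and 12.99 CPM in SCR and 45.1, 40.9 and 39.8 CPM in shEya3_KD1. Pdk1, which keeps pyruvate from the mitochondrial dehydrogenase, was at 26.6, 30.8 and 32.3 and 76.5, 76.01 and 71.5 CPM, and Ldha, which makes lactate, rose from 1718 ± 35.4 to 2583 ± 58.2 CPM. The muscle type phosphofructokinase Pfkm fell from 25.1 ± 0.918 to 16.00 ± 3.18 CPM. Of 19 hypoxia-induced genes outside glycolysis 10 rose and 4 fell. Car9, a carbonic anhydrase at the cell surface, was at 11.2, 17.9 and 14.8 CPM in SCR and 122, 101 and 97.2 CPM in shEya3_KD1, and Egln3, an oxygen-sensing hydroxylase, at 152, 146 and 142 and 41.2, 35.4 and 34.3 CPM, so that 2 well known targets of hypoxia-inducible factors moved in opposite directions.

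The amino acid stress response, which Atf4 drives when amino acids run short, had 23 members that rose and 5 that fell of 37 tested, with a median of 0.30 (3 fell without SCR replicate 3). Phgdh and Psph, enzymes of serine synthesis, rose from 396 ± 17.6 to 784 ± 46.9 CPM and from 33.03 ± 2.02 to 63.3 ± 7.52 CPM, and Stc2, a secreted stanniocalcin, from 20.9 ± 1.17 to 44.9 ± 2.01 CPM. Slc7a11, the cystine importer, was at 65.8, 58.3 and 76.7 CPM in SCR and 24.9, 31.97 and 30.1 CPM in shEya3_KD1, 1 of the 5 members that fell. Of 29 chaperones and sensors of the endoplasmic reticulum 10 rose and 9 fell (4 fell without SCR replicate 1 or shEya3_KD1 replicate 1), and the sensors parted: Atf6 rose from 92.7 ± 2.42 to 168 ± 7.84 CPM and Ern1 fell from 49.97 ± 5.08 to 31.9 ± 1.76 CPM. In sterol synthesis 11 of 26 rose and 4 fell, with Cyp51 from 119 ± 8.05 to 243 ± 3.81 CPM and the feedback protein Insig1 from 109 ± 2.39 to 234 ± 7.91 CPM, and in fatty acid synthesis and storage 8 of 28 rose and 9 fell (5 rose without SCR replicate 2 or shEya3_KD1 replicate 2), with Fasn from 1126 ± 139 to 726 ± 98.5 CPM.

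Among cytosolic ribosomal proteins 34 of 81 tested rose and 1 fell, with a median of 0.25. The number that rose was 53 with the fit on the 6 libraries alone and 22 without shEya3_KD1 replicate 3, the number that fell 0 to 2 with libraries left out, and none rose at a minimum fold of 1.5. Rps2 was at 904, 859 and 866 CPM in SCR and 1437, 1483 and 1366 CPM in shEya3_KD1. Small nucleolar RNAs lie in the span of several genes of this kind, Rps2 among them, and their reads cannot be told apart here. Of 81 nuclear encoded genes of oxidative phosphorylation 12 rose and 13 fell (6 to 7 rose without SCR replicate 2 or 3 or shEya3_KD1 replicate 2, and 19 without shEya3_KD2 replicate 2 or with the fit on the 6 libraries alone). Ndufa12, a subunit of complex I, was the member with the largest fall, from 143 ± 7.86 to 72.6 ± 3.39 CPM. No member fell more than 2-fold, while 2 rose more than 2-fold, by up to 4.20 on the log2 scale. Of 13 genes of the mitochondrial genome 1 rose, mt-Nd3, and 12 did not pass the test (8 and 9 rose without SCR replicate 2 and without shEya3_KD1 replicate 2). Genes of DNA replication and of mitosis counted 10 risen and 7 fallen of 40, and 8 risen and 6 fallen of 39. The shares called in either direction were 43.2% for ribosomal proteins and 30.9% for oxidative phosphorylation. They were 42.5% for replication and 35.9% for mitosis, and all lay below the 50.3% of all genes. Ccne1, which drives entry into S phase, was at 33.3 ± 1.28 CPM in SCR and 19.3 ± 0.266 CPM in shEya3_KD1, and Ccnd1, the cyclin of early G1, rose from 1914 ± 26.3 to 2823 ± 218 CPM. Without SCR replicate 2 or shEya3_KD1 replicate 2 the number of replication genes that rose was 6.

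**Figure D3:**
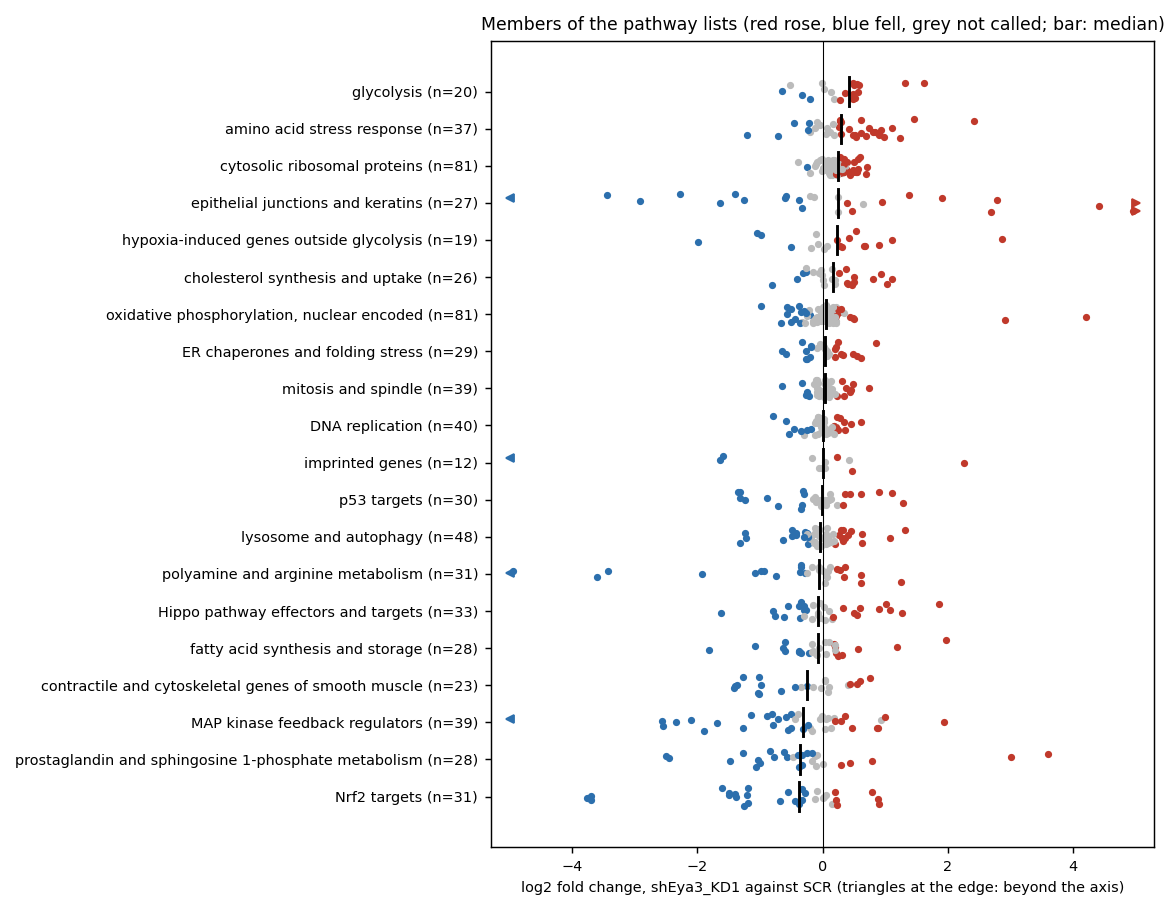
Log2 fold change in shEya3_KD1 against SCR of each tested member of the pathway lists (points; red rose, blue fell, grey not called), with n the tested members and a black bar at the median; triangles at the edges are members beyond the axis. Glycolysis and ribosomal proteins have medians to the right of 0, with members from -0.64 to 1.62 and from -0.39 to 0.71, while Nrf2 targets and MAP kinase feedback regulators spread to the left.

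Other pathways leaned towards falling. Of 31 tested Nrf2 targets, genes of detoxification and antioxidant defence, 19 fell and 6 rose (3 rose without SCR replicate 2 or shEya3_KD1 replicate 2), with a median of -0.38. Gsta1, a glutathione transferase, was at 53.6, 44.5 and 50.2 CPM in SCR and 3.70, 3.86 and 3.83 CPM in shEya3_KD1, a fall seen in each library. Gsta2, a near-identical paralog, fell by 3.77 on the log2 scale, and reads may have been split between them. Txnrd1, a thioredoxin reductase, fell from 889, 822 and 873 CPM to 324, 306 and 283 CPM, and Nqo1, a quinone reductase, from 34.00 ± 2.99 to 11.2 ± 1.23 CPM. Srxn1 and G6pdx, which restore peroxiredoxins and NADPH, had log2 fold changes of -1.38 and -1.19.

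MAP kinase feedback regulators, phosphatases and adaptors that growth factor signals induce and that dampen them, had 19 members that fell and 8 that rose of 39 tested, with a median of -0.32. Ier3, an immediate early gene, was at 316, 291 and 304 CPM in SCR and 56.4, 49.7 and 49.9 CPM in shEya3_KD1. The dual specificity phosphatases were divided: Dusp14 was at 37.5, 34.9 and 36.9 and 6.09, 6.13 and 6.17 CPM and Dusp5 fell by 1.89 on the log2 scale, whereas Dusp4 rose from 19.7 ± 0.911 to 39.5 ± 2.55 CPM. Spry1, an inhibitor of receptor tyrosine kinase signals, rose from 27.1 ± 1.07 to 103 ± 9.55 CPM. Ksr2, a scaffold of the kinase cascade, was down to 1 count in shEya3_KD1 against 1483 in SCR, 1219 times fewer after scaling (95% interval from counting 218 to 48160).

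Enzymes and carriers of prostaglandins and sphingosine 1-phosphate, lipid signals between cells, counted 17 fallen and 5 risen of 28, with a median of -0.36. Ptgs2 and Ptges, the steps that lead to prostaglandin E2, fell from 449 ± 31.7 to 220.2 ± 12.2 CPM and from 215 ± 9.68 to 76.8 ± 8.69 CPM. Ptgds, at the branch to prostaglandin D2, was at 1.66, 1.79 and 1.71 CPM in SCR and 19.7, 22.1 and 21.01 CPM in shEya3_KD1. These synthases, Ptges for E2 and Ptgds for D2, thus moved in opposite directions. For sphingosine 1-phosphate the kinase Sphk1 was at 67.3, 69.1 and 64.4 CPM in SCR and 12.1, 12.1 and 12.3 CPM in shEya3_KD1, and the exporter Spns2 at 4.33, 6.53 and 4.76 and 44.4, 42.99 and 38.2 CPM. The maker of the lipid fell and its exporter rose, with no overlap in either.

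In polyamine and arginine metabolism 7 of 31 tested genes rose and 13 fell. Odc1, the first enzyme of polyamine synthesis, was at 2870, 2730 and 2661 CPM in SCR and 688, 742 and 737 CPM in shEya3_KD1, and the nitric oxide synthase Nos1 at 79.8, 101 and 85.2 and 8.97, 8.33 and 7.29 CPM. Nos1 starts at 117781032 on chromosome 5, close to the end of Ksr2 at 117775003. Whether the falls of Nos1 and Ksr2 are linked was not tested. Sat1, which marks polyamines for export, fell from 65.5 ± 1.16 to 33.2 ± 4.18 CPM, and Smox, which oxidises spermine, rose from 7.16 ± 0.372 to 16.97 ± 1.43 CPM. Contractile and cytoskeletal genes of smooth muscle had 11 members that fell and 4 that rose of 23, with a median of -0.25. Tagln2 and Pdlim7, both associated with actin filaments, fell from 174 ± 7.86 to 65.5 ± 4.85 CPM and from 87.4 ± 7.74 to 32.9 ± 1.23 CPM, and the tropomyosin Tpm1 from 533 ± 31.9 to 262 ± 10.2 CPM. Of 33 Hippo effectors and targets 10 rose and 12 fell, and known targets of Yap parted: Ankrd1 was at 671, 696 and 714 CPM in SCR and 230.2, 228 and 219 CPM in shEya3_KD1, while Ccn2 rose as given above. Among 30 p53 targets 7 rose and 10 fell, with a median of -0.01, and 2 rose and 4 fell more than 2-fold. Among those that fell were the polo-like kinase Plk2, from 466 ± 34.8 to 182 ± 11.9 CPM, and the growth arrest gene Gadd45a, from 23.2 ± 3.37 to 9.31 ± 1.03 CPM.

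Abundant genes were also read by absolute amount. Among the 10 called genes with the largest losses in mean CPM were Ctsl, a lysosomal cysteine protease, from 5231 ± 266 to 2233 ± 105 CPM, Cd34, a sialomucin of stem cells and vessels, from 586 ± 20.7 to 76.3 ± 4.59 CPM, and Flna, an actin crosslinker, from 1406 ± 71.9 to 883 ± 56.6 CPM. The largest gains included Hsp90ab1, a chaperone, from 4801 ± 116 to 6322 ± 325 CPM, and S100a6, a calcium-binding protein, from 999 ± 28.7 to 1785 ± 213 CPM. The losses in Pkm, which makes pyruvate, from 3908 ± 45.9 to 3402 ± 263 CPM, and in Eef2, an elongation factor, from 7031 ± 270.2 to 6078 ± 509 CPM, were small (log2 fold changes -0.20 and -0.21) and lost the call with 1 library fewer: the adjusted p in edgeR was between 0.066 and 0.115, with log2 fold changes of -0.22 to -0.15, for 1 or both when SCR replicate 1, 2 or 3 or shEya3_KD1 replicate 2 or 3 was left out.

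The last question was which of these changes differed between the 2 hairpins, asked by the contrast of shEya3_KD2 with shEya3_KD1, which does not use the SCR libraries. Over all genes tested 7889 differed, 49.6%, and among secreted factors, receptors and transcription factors 68.6%, 64.9% and 63.9% did. Of the 158 genes named by rule 133 differed. Shares of the pathway lists ran from 33.3% (imprinted genes) to 90.3% (Nrf2 targets). Against SCR, Gsta1 and Txnrd1 were not called in shEya3_KD2 (log2 fold changes 0.24 and -0.09), while Osgin1 fell (-1.20). Plk2, Gadd45a and Slc7a11, which fell in shEya3_KD1, rose in shEya3_KD2 against SCR (0.38, 0.63 and 1.26). Adgrl3, at 1.04 ± 0.0144 CPM in SCR and 129 ± 4.86 CPM in shEya3_KD1, stood at 0.917, 0.702 and 0.850 CPM in the shEya3_KD2 libraries (log2 difference -7.25 ± 0.10, adjusted p = 5.17e-16 in edgeR). Its level with the second hairpin was near that of SCR. Procr stood at 25.96, 22.3 and 26.96 CPM in shEya3_KD2, between the SCR and shEya3_KD1 levels (log2 difference 8.65 ± 0.17, adjusted p = 3.91e-14 in edgeR). Mmp24, at 68.9, 68.7 and 63.4 CPM, and Grhl2, at 15.2, 14.96 and 14.02 CPM, likewise lay between them, with log2 differences of 7.21 ± 0.11 and 3.45 ± 0.10. Cdh17 stood at 43.8, 37.1 and 40.6 CPM in shEya3_KD2, above every SCR library, and Foxp2 at 0.156, 0.0739 and 0.189 CPM, below every SCR library. For both the hairpins lay on opposite sides of SCR (log2 differences 4.69 ± 0.11 and -5.97 ± 0.20). Col5a2 was at 0.527, 0.702 and 0.684 CPM in shEya3_KD2, Sema3a at 14.5, 17.3 and 15.2 CPM and Fgfr1 at 6.14, 9.12 and 5.97 CPM (log2 differences -5.48 ± 0.19, -3.38 ± 0.09 and -2.03 ± 0.15). By contrast Spns2 was at 41.1 ± 2.59 CPM in shEya3_KD2 and Ptgds at 18.8 ± 2.22 CPM, with log2 differences of -0.03 ± 0.11 and -0.16 ± 0.09 (adjusted p = 0.864 and 0.14 in edgeR), which did not pass the test. Eya3 itself was at 37.5 ± 3.02 CPM in shEya3_KD2 and differed from shEya3_KD1 by 0.70 ± 0.08. The genes named here were picked for a large change in shEya3_KD1, so that their distance from shEya3_KD2 says nothing about genes at large.

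**Figure D4:**
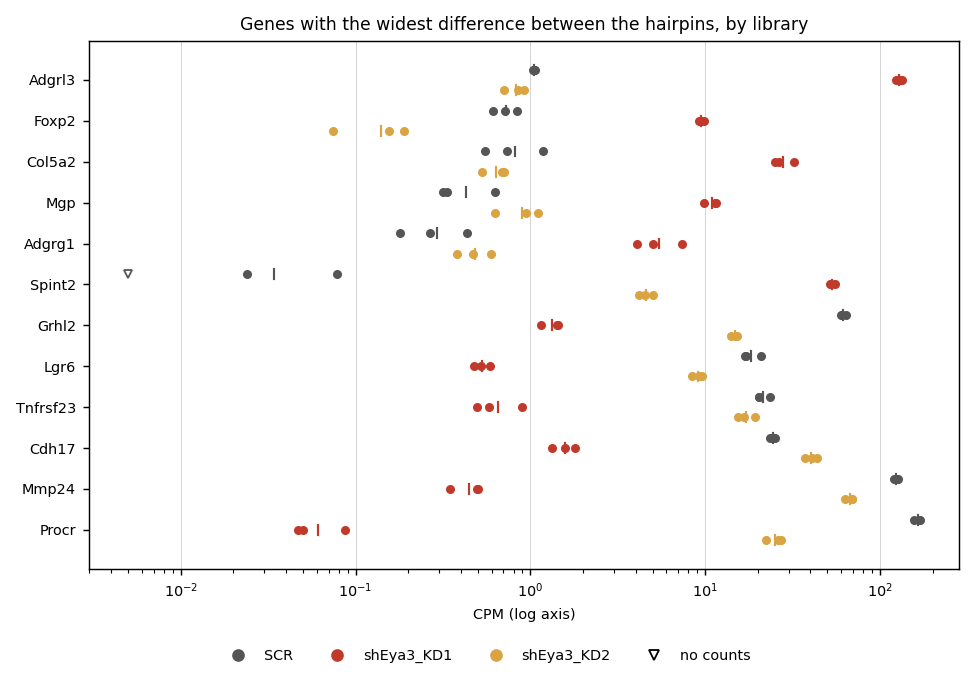
Level in CPM (log axis) by library of the 12 genes with the widest difference between the hairpins among those with the largest change in each class, for SCR (grey), shEya3_KD1 (red) and shEya3_KD2 (yellow), with short bars for group means and an open triangle for a library with no counts. The yellow points lie near the grey ones for Adgrl3 and Col5a2, between grey and red for Procr and Grhl2, and beyond the grey ones for Cdh17 and Foxp2.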

How the data were processed

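RNA from cultured 66cl4 cells was extracted and sequenced as poly(A) libraries with a NuGEN Universal Plus kit, per the labels' protocols. The submitters' processing notes list the tools FastQC, MultiQC and STAR with the build mm10. How reads were assigned to genes (tool, annotation, strand) is a step not given in the sources used here. Raw read counts per gene symbol, which the authors deposited as whole numbers in every column, were used without change. Library totals of 27758862 to 52691960 set the precision of low values. Where a group had no counts, 3 counts over the group served as the floor. Where it had 1 to 3, the text gives the ratio of scaled counts with its 95% counting interval. Floors and intervals cover counting error only.

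The analysis ran in R 4.3.3 with edgeR 4.0.16: filterByExpr (15914 genes), TMM factors, 1 quasi-likelihood fit with robust estimation over all 9 libraries, group as the only term, and a Benjamini-Hochberg adjusted p of at most 0.05. SEs were derived from the fold change and its F statistic. An exact permutation test of 3 against 3 libraries cannot go below 0.1. Each pair of replicates differed beyond sampling noise (chi-square divided by its degrees of freedom 9.24 to 45.2, for genes with 20 reads or more), so every library counts once. In counts simulated for shEya3_KD1 against SCR (15554 genes, 200 changed) the fit recovered 68.8% of genes changed 1.5-fold and 86.2% of those changed 2-fold, or 95.2% and 98.5% of those at 5 CPM or more, and 8.70% of its calls were unchanged genes. List medians in the text were the same to 2 decimals with genes without counts at their bound.

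The comparison and the gene lists were chosen with earlier results of these data known. The rule named Eya3, in each class the 8 rising and 8 falling called genes with the largest fold change, at least 5 CPM in 1 group and no overlap, up to 3 called genes per list by size of change, and the 10 rises and 10 falls largest in mean CPM, 158 genes in all. Some of these genes, and 1 further promoter motif that was searched, are not reported here. Genes named outside it, after their values were seen, were Adamts14, Adgrl2, Ccn2, Cldn1, Col1a1, Col1a2, Csf3, Dusp4, Dusp5, Efna5, Efnb2, Egr2, Egr3, Elf3, Erbb3, Erbb4, Fgf10, Fgfr3, Fosl2, Fzd1, Fzd4, G6pdx, Gata3, Gpr20, Grhl1, Hbegf, Hey1, Hey2, Hoxb8, Il17rc, Il6st, Itga3, Lepr, Lifr, Loxl4, Ltbp1, Ltbp2, Ltbp4, Maff, Mmp1b, Mmp14, Myf5, Nfkb2, Nqo1, Pdgfa, Phgdh, Prss23, Psph, Ptges, Ptgs2, Ptprc, Rxfp1, Sat1, Sema3f, Sema7a, Smad3, Smo, Sparc, Spry1, Srxn1, Tgfb1, Tgfb3, Tnfrsf9, Tnfsf15, Tpm1, Trp63, Wnt7a and Wnt9a. In GENCODE M21 (mm10), which gave the coordinates and holds 15904 of the tested symbols, 37 of the 158 overlap another tested gene, 12 on the same strand, Spp1, Txnrd1, Il11ra1, Odc1, Pkm, Eef2 and Fgfr2 among them. Others, such as Mmp24, Adgrl3, Jund, Notch1, Krt8, Sphk1, Spns2 and Car9, overlap a gene on the opposite strand, and reads there cannot be told apart.

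The alternatives changed the tool (DESeq2 1.42.0, or limma-voom with limma 3.58.1), the scaling (RLE), the filter (none, or 5 CPM in 3 libraries), the libraries (the 6 alone, or 1 left out at a time), the model (a block for the replicate number) and the threshold (glmTreat with a minimum fold of 1.5). Leaving out the shEya3_KD2 libraries, and list counts under every alternative, were added after the data had been seen.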

Additional observations from a re-analysis of the deposited data

How the results depend on the processing

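Eya3 kept its fall under every setting tried (log2 fold change -1.71 to -1.61 with each library left out). With a library left out in turn, shEya3_KD2 included, the comparison called 3236 to 4209 genes risen and 3808 to 4472 fallen, 71 to 84 secreted factors risen and 96 to 108 fallen, 95 to 110 receptors risen and 108 to 127 fallen, and 101 to 130 transcription factors risen and 102 to 130 fallen. A minimum fold of 1.5 left 933 genes risen and 1658 fallen, 48 secreted factors risen, 51 receptors risen and 75 fallen, and 50 transcription factors risen and 40 fallen. A filter of 5 CPM in 3 libraries left 45 secreted factors risen and 61 fallen, and 72 receptors fallen; fewer genes are tested under it. None of the settings run turned the direction of a named gene. Of 2665 repeats over the 157 named genes other than Eya3, 42 (32 genes) lost the call, 32 of these genes at the minimum fold; Rpl34 also lost it with no filter (adjusted p = 0.0942 in edgeR). Of 1802 list counts, 167 moved by more than 1.5 times. Same-numbered SCR and shEya3_KD1 libraries did not deviate together (correlations -0.08, -0.11 and 0.005), so the numbers do not pair them, and the libraries did not each correlate best with their own number; with the replicate block 3885 genes rose and 4208 fell. The contrast between the hairpins was not run on the 6 libraries alone, which lack shEya3_KD2. Depth limits genes below 5 CPM: in the simulated counts 40.0% of 15 genes changed 2-fold below 1 CPM and 72.7% of 11 between 1 and 5 CPM were recovered. The simulation changed 200 genes, far fewer than were called in the data, so these shares need not hold there.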
